A study of Mus musculus with 9 samples.

Results

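Afap1l1 and the antisense gene 1500015A07Rik lie on opposite strands of mouse chromosome 18 and overlap there. They were chosen because Afap1l1 had hardly any counts in 1 of 3 genotypes of sciatic nerve. Of these 2 names, 1 was measured, since the values here are those of the Afap1l1 entry, 1 of 25965 gene entries, while 1500015A07Rik was not analysed here. As the choice rests on the counts of Afap1l1 in the 3 genotypes, those counts are described without a test of genotype.

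The nerves came from PINCH1 mutants, PINCH2 mutants and control littermates on a C57BL/6 background, with 3 RNA-seq libraries of each genotype. Each library was made from a pool of 4 nerves, stripped of their outer sheath, from 1 male and 1 female. The age is postnatal day 15 in the sample labels and 14 in the protocol. The sources used here do not say by which alleles or in which cells PINCH1 or PINCH2 was altered, nor whether the 3 genotypes have an allele in common.

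Afap1l1 encodes an adaptor of the actin filament-associated protein (AFAP) family. These proteins bind actin filaments and carry pleckstrin homology domains, and the founding member AFAP1 binds and activates the kinase Src. AFAP1L1 has been linked to podosomes and invadosomes, the actin-rich adhesions with which cells contact and remodel matrix, and to the actin regulator cortactin. PINCH1 and PINCH2, encoded by Lims1 and Lims2, are LIM-domain adaptors of a complex with parvins and integrin-linked kinase (encoded by Ilk) that couples integrins to actin.

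Library totals ran from 957828 to 1204964 counts. Where a library had no count of a gene, the level could still be that of 3 counts, or 2.504 to 3.404 CPM (counts per 1e+06, TMM-scaled) by library, counting error only. Markers of myelinating Schwann cells were all detected, with 10 of 10 tested and a summed level of 11278 CPM or more in every library. The entries of the targeted genes were themselves too low to check the labels. Lims1 had 0, 1 and 3 counts in the PINCH1 mutants, 0, 1 and 9 in the PINCH2 mutants and 3, 7 and 7 in the controls. Lims2 had 5, 3 and 1 counts in the PINCH1 mutants, 5, 1 and 1 in the PINCH2 mutants and 9, 1 and 5 in the controls. Gpr17 has exons that overlap those of Lims2 on the other strand. It averaged 311 ± 39.9 CPM in PINCH1 mutants, 104 ± 32.3 CPM in PINCH2 mutants and 290 ± 79.4 CPM in controls (SD). The part of the altered PINCH2 gene in these levels was not tested.

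Afap1l1 (ENSMUSG00000033032) occupies positions 61730261 to 61786702 on the minus strand (GRCm38), where its 3 annotated transcripts cover 3680 bp of exon. 1500015A07Rik (ENSMUSG00000098702), annotated as an antisense RNA, occupies 61726390 to 61735917 on the plus strand. The tails of the 2 genes run past each other over 5657 bp, but their exons share only 149 bp, at 61735598 to 61735746. In the full-length transcript Afap1l1-201 this stretch lies in exon 17 of 19 and is coding. It makes up 4.05% of the exon length of Afap1l1 and 6.49% of that of 1500015A07Rik. No other annotated gene has exons opposite those of Afap1l1. The sources used here do not say whether counting used the strand, so reads from either RNA could have been counted under the name Afap1l1.

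**Figure D1:**
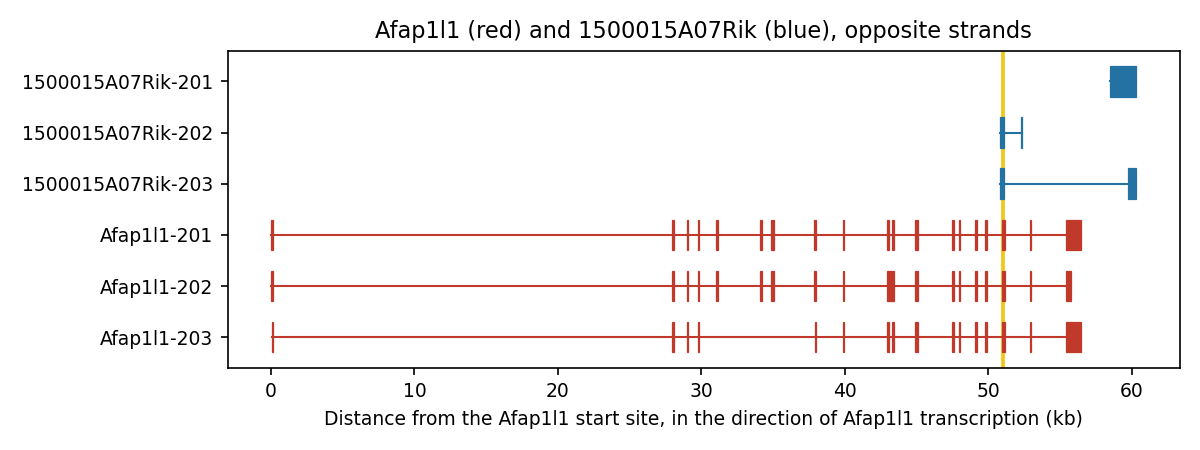
Annotated transcripts of Afap1l1 (red, 3 transcripts) and 1500015A07Rik (blue, 3 transcripts), with exons as boxes and distance from the Afap1l1 start site in kb on the horizontal axis. The yellow band marks the 149 bp that exons of both genes share, near the 3' end of Afap1l1.

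Afap1l1 was close to undetected in PINCH1 mutant nerves and was counted in every library of the other genotypes. It had 0, 0 and 1 counts in the PINCH1 mutants, 78, 21 and 107 in the PINCH2 mutants and 40, 5 and 59 in the controls. Every PINCH1 mutant library lay below every library of the other genotypes, while the PINCH2 mutants and the controls overlapped. The separation from controls was narrowest between PINCH1 mutant replicate 3, with 1 count, and control replicate 2, with 5. On the scaled level this was 0.278 ± 0.482 CPM in PINCH1 mutants, 69.2 ± 46.4 CPM in PINCH2 mutants and 33.0 ± 25.1 CPM in controls (SD, n = 3 each). The order from low to high was therefore PINCH1 mutants, controls and PINCH2 mutants, and the last pair did not differ beyond its spread. In bulk RNA, fewer cells that express a gene and less of its RNA per cell cannot be told apart.

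**Figure D2:**
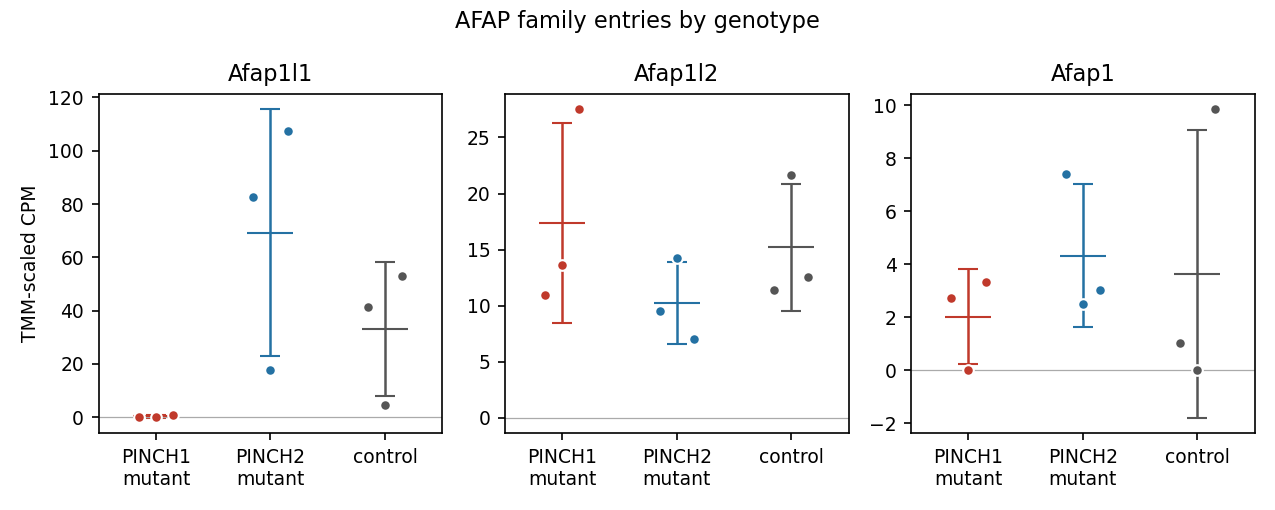
TMM-scaled CPM of the 3 AFAP family entries, with 1 point per library, the mean as a horizontal bar and the SD as the error bar (n = 3 per genotype, each panel with its own linear scale). The PINCH1 mutant points of Afap1l1 sit at 0 to 0.835 CPM, below all 6 other libraries, while the points of Afap1l2 and Afap1 overlap between genotypes.

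Summed over libraries, Afap1l1 had 1 count in PINCH1 mutants, 206 in PINCH2 mutants and 104 in controls. The ratio of PINCH1 mutants to controls was 0.00952, with an exact 95% counting interval of 0.000239 to 0.0542. The ratio of PINCH1 to PINCH2 mutants was 0.00479 (0.000121 to 0.0270), and that of PINCH2 mutants to controls was 1.99 (1.56 to 2.54). These intervals are too narrow as a measure of nerves, because the variance of the counts was 27.9 times their mean in PINCH2 mutants and 21.6 times in controls.

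The depletion in PINCH1 mutants was set against that of other entries. Of the 2084 entries with at least 100 counts summed over the controls, Afap1l1 was the only one with 1 count or fewer in the PINCH1 mutants. The next lowest ratio belonged to 2310008H04Rik, with 24 counts in PINCH1 mutants and 157 in controls. Against the PINCH2 mutants, the next lowest of 2044 such entries was Camk4, with 96 counts in PINCH1 and 570 in PINCH2 mutants. In the comparison of PINCH2 mutants with controls, Afap1l1 had the highest ratio but 3 among the 2084 entries. Groups that did not overlap, with PINCH1 mutants lower, were found for 7.49% of the 4738 tested entries against controls and for 5.57% against PINCH2 mutants. These ranks and shares describe the pattern for which Afap1l1 was chosen and lend it no further support.

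Afap1l1 also varied widely among libraries of the same genotype. Its highest library was 6.12 times its lowest in the PINCH2 mutants and 11.2 times in the controls. The coefficient of variation was 67.1% in PINCH2 mutants and 76.3% in controls, where the median over entries with a mean of at least 10 counts was 25.3% and 23.9%. Only 4.86% and 2.35% of those entries varied more. Over all 9 libraries its edgeR biological coefficient of variation was 0.779, exceeded by 22 of 4738 tested entries.

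Within the PINCH2 mutants and within the controls, Afap1l1 ranked alike by replicate number, whose meaning the labels do not give. In the libraries numbered 1, Afap1l1 stood at 0 CPM in the PINCH1 mutant, 82.6 in the PINCH2 mutant and 41.3 in the control. In those numbered 2 it stood at 0 CPM in the PINCH1 mutant, 17.6 in the PINCH2 mutant and 4.71 in the control. In those numbered 3 it stood at 0.835 CPM in the PINCH1 mutant, 107.5 in the PINCH2 mutant and 52.9 in the control. In each number the PINCH1 mutant was the lowest, which is the pattern for which Afap1l1 was chosen. The PINCH2 mutant was 1.997 to 3.73 times the control of the same number, but the numbers are not taken as pairs. The libraries numbered 2 were the lowest of their genotype in both the PINCH2 mutants and the controls. This was so for 640 of the 4738 tested entries (13.5%), so it is not particular to Afap1l1. In 13 of them, Afap1l1 included, each other library of the genotype was at least 3 times number 2.

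Those 13 entries included the mitochondrial entries mt-Co2, mt-Atp8, mt-Atp6, mt-Co3 and mt-Nd4l. These encode subunits of the respiratory chain and ATP synthase and were singled out here after their values were seen. Their 5 counts summed to 1659, 181 and 6267 in the PINCH1 mutants, 4156, 20 and 4662 in the PINCH2 mutants and 1820, 46 and 7267 in the controls, in the order of the replicate numbers. The libraries numbered 2 were the lowest of their genotype for these entries. The counts of all mitochondrial entries together did not follow this, at 125471, 103315 and 152466 in the PINCH1 mutants, 94886, 135273 and 128157 in the PINCH2 mutants and 124537, 104815 and 126954 in the controls. There number 2 was the highest of the PINCH2 mutants and the lowest of the other genotypes. The part of this difference between libraries in the spread of Afap1l1 was not tested. Without the libraries numbered 2, Afap1l1 averaged 0.417 CPM in PINCH1 mutants, 95.1 CPM in PINCH2 mutants and 47.1 CPM in controls.

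**Figure D3:**
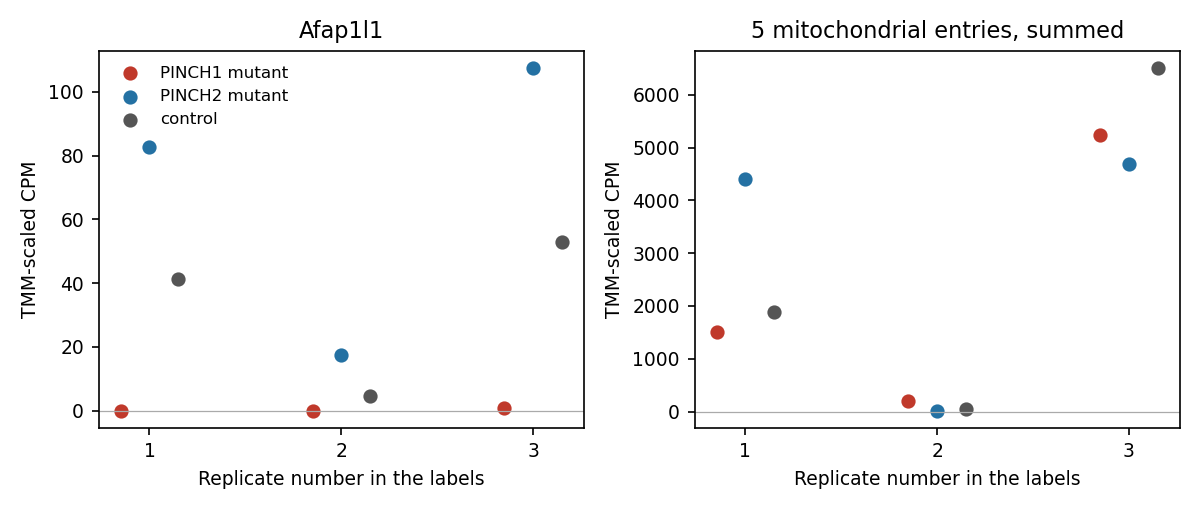
TMM-scaled CPM (vertical axis, linear) of Afap1l1 on the left and of 5 mitochondrial entries summed on the right, by replicate number, with 1 point per library and genotype by colour. Both panels are low at number 2, where Afap1l1 reached 17.6 CPM in the PINCH2 mutant and 4.71 CPM in the control.

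The other members of the family overlapped between genotypes. Per kb of exon, Afap1l1 averaged 0.0756 CPM in PINCH1 mutants, 18.8 CPM in PINCH2 mutants and 8.96 CPM in controls. Afap1l2, a relative that binds Src and links it to phosphoinositide 3-kinase signalling, averaged 3.06 CPM per kb in PINCH1 mutants, 1.81 in PINCH2 mutants and 2.68 in controls. Its counts were 12, 12 and 33 in PINCH1 mutants, 9, 17 and 7 in PINCH2 mutants and 11, 23 and 14 in controls, with overlap between all genotypes. Its log2 fold change was 0.20 (SE 0.48) in PINCH1 mutants over controls and -0.55 (SE 0.50) in PINCH2 mutants over controls, and neither passed (edgeR adjusted p = 0.976 and 0.999). Only 0.0633% of all tested entries passed in the first comparison and 0.0211% in the second, which share the same controls. Afap1 had 3, 0 and 4 counts in PINCH1 mutants, 7, 3 and 3 in PINCH2 mutants and 1, 0 and 11 in controls. It was too low to be tested.

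AFAP proteins work among the genes of podosomes, invadosomes and the cortical actin network. Of the 29 entries on that list, 2 had no count in any PINCH1 mutant library, 1 in the PINCH2 mutants and 0 in the controls. Those 2 had only 1 and 4 counts summed over the controls. Of all 25965 entries, 13451 had a count in the PINCH1 mutants, 13339 in the PINCH2 mutants and 13528 in the controls. In PINCH1 mutants over controls, 0 of 20 tested members passed in edgeR, DESeq2 or limma-voom, and 2 had an unadjusted edgeR p under 0.05, as did 301 of the 4737 other tested entries. Of the 20, 14 lay below 0 with a median log2 fold change of -0.29, where all other tested entries had a median of -0.02. The members with the highest mean CPM were the membrane fission GTPase Dnm2 (0.17, SE 0.19), the Arp2/3 subunit Arpc1b (0.12, SE 0.19), the adhesion adaptor Pxn (0.96, SE 0.38) and Vcl (0.52, SE 0.31), which encodes the adhesion protein vinculin that links talin to actin. Dnm2 shares exon sequence with Tmed1 on the other strand, Arpc1b with Pdap1 and Vcl with Ap3m1. Pxn had 74 to 282 counts in PINCH1 mutants, 62 to 79 in PINCH2 mutants and 55 to 145 in controls, with overlap between PINCH1 mutants and controls. Its adjusted p of 0.656 in edgeR became 0.0438 with no filter on low counts and 0.038 where 1 CPM or more was asked of 3 libraries or more.

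In PINCH2 mutants over controls, 0 of the 20 passed in any of those tools, 2 had an unadjusted edgeR p under 0.05 (202 of all 4737) and 15 lay below 0 (median -0.21, against 0.00 for all other tested entries). Between the mutants the count was 0 in edgeR and limma-voom, with 1 at an unadjusted edgeR p under 0.05 (300 of all 4737), and DESeq2 called 1, Pxn. Of all tested entries, 0.0844% passed between the mutants in edgeR and 0.211% in DESeq2. Of the Src substrates and adhesion adaptors only Grb2 was abundant enough to be tested. It had a log2 fold change of -1.25 (SE 0.60, edgeR adjusted p = 0.759) in PINCH1 mutants over controls.

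The complex that PINCH proteins join was also counted. Of its 6 tested members, 0 passed in PINCH1 mutants over controls in edgeR, DESeq2 or limma-voom, where 0.0633% of all tested entries passed in edgeR. Of the 6, 0 had an unadjusted edgeR p under 0.05 and 4 lay below 0 (median -0.11), against 301 and 2474 of the 4737 other tested entries. The laminin receptor subunit Itga6 stood at -0.29 on the log2 scale (SE 0.19) and its partner Itgb1 at 0.09 (SE 0.22). Ilk, which shares exon sequence with Rrp8 and Taf10, stood at 0.11 (SE 0.18) and the parvin gene Parva at -0.13 (SE 0.33). The adjusted p of the 6 ran from 0.842 to 0.986 in edgeR. In PINCH2 mutants over controls, 0 of the 6 passed in those tools, where 0.0211% of all tested entries passed in edgeR. Of the 6, 5 lay below 0 (median -0.23), as did 2338 of the 4737 other tested entries. An unadjusted edgeR p under 0.05 was found for 1 of the 6 and for 202 of those 4737. The 1 member was Itga6, at -0.52 (SE 0.19, edgeR adjusted p = 0.999), with 131 ± 22.2 CPM in PINCH2 mutants and 187 ± 11.1 CPM in controls (SD). Its scaled level lay below the controls without overlap in both mutants. Such a separation was found for 7.49% of tested entries in PINCH1 mutants and 4.81% in PINCH2 mutants.

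The neighbours of Afap1l1 on the chromosome were examined as measures that the choice did not use. The window of 1 Mb on either side held 30 other entries, of which 10 had no count in any library and 4 could be tested. The closest were almost silent. Grpel2, a mitochondrial chaperone cofactor gene on the minus strand, lies 3929 bp from Afap1l1, and its start lies 58 bp from that of 1500015A07Rik. Grpel2 had 3 to 5 counts in PINCH1 mutants, 0 to 3 in PINCH2 mutants and 1 to 3 in controls. On the other side, the actin-binding LIM protein gene Ablim3, 12692 bp away, had 0 to 3 counts in PINCH1 mutants, 0 or 1 in PINCH2 mutants and 0 or 1 in controls. Sh3tc2, a Schwann cell gene mutated in a demyelinating neuropathy in humans, had 13, 1 and 11 counts in PINCH1 mutants, 3, 7 and 5 in PINCH2 mutants and 9, 7 and 15 in controls. These genes did not pass the filter on low counts and were not tested.

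Of the 4 tested neighbours, 0 passed in any comparison in edgeR, DESeq2 or limma-voom. Of all tested entries, edgeR passed 0.0633% in PINCH1 mutants over controls, 0.0211% in PINCH2 mutants over controls and 0.0844% between the mutants. Csnk1a1, a casein kinase gene 140.2 kb from Afap1l1, had 22, 14 and 22 counts in PINCH1 mutants, 18, 24 and 28 in PINCH2 mutants and 35, 30 and 38 in controls. Both mutants lay below the controls without overlap, a separation found for 7.49% of tested entries in PINCH1 mutants and 4.81% in PINCH2 mutants. For the PINCH2 mutants it was close to a tie, with 28.14 CPM in PINCH2 mutant replicate 3 and 28.27 CPM in control replicate 2. Its log2 fold change was -0.85 (SE 0.34, edgeR adjusted p = 0.65) in PINCH1 mutants and -0.55 (SE 0.33, adjusted p = 0.999) in PINCH2 mutants. In PINCH1 mutants over controls it was the 1 neighbour with an unadjusted edgeR p under 0.05, as found for 301 of the 4737 tested entries other than Afap1l1.

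The remaining neighbours that were tested overlapped between the mutants and the controls. Csf1r, the macrophage growth factor receptor gene, had 545 to 704 counts in PINCH1 mutants, 454 to 661 in PINCH2 mutants and 601 to 699 in controls. Its log2 fold change was -0.09 (SE 0.16) in PINCH1 mutants and -0.12 (SE 0.16) in PINCH2 mutants. Hmgxb3, whose exons overlap those of Csf1r on the other strand, stood at -0.41 (SE 0.81) in PINCH1 mutants and 0.12 (SE 0.78) in PINCH2 mutants. The ribosomal protein gene Rps14 stood at 0.53 (SE 0.38) in PINCH1 mutants and 0.71 (SE 0.38) in PINCH2 mutants. Their adjusted p ran from 0.867 to 0.999 in edgeR. Summed over the 30 neighbours, the level was 623 to 695 CPM in PINCH1 mutants, 546 to 767 CPM in PINCH2 mutants and 639 to 762 CPM in controls. Of the 6371 counts of these neighbours over all libraries, 5466 were those of Csf1r.

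**Figure D4:**
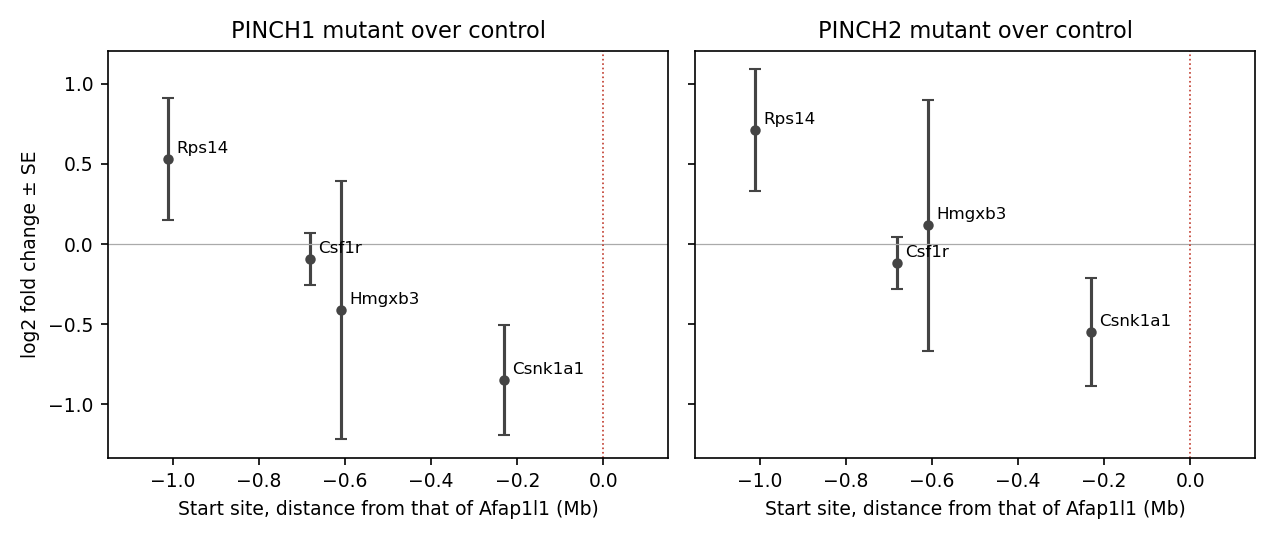
Log2 fold change with its SE (edgeR) of the 4 tested neighbours in PINCH1 mutants over controls (left) and PINCH2 mutants over controls (right), against the distance of their start sites from that of Afap1l1 (dotted line) in Mb. None passed the threshold, and Csnk1a1, the closest, stood at -0.85 and -0.55.

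Lims2, the gene that encodes PINCH2, lies on the same chromosome, 29.8 Mb from Afap1l1. Camk4, which encodes a kinase activated by calcium and calmodulin and overlaps 2310026I22Rik, lies between them, 28.5 Mb from Afap1l1. Camk4 had 27, 26 and 43 counts in PINCH1 mutants, 131, 260 and 179 in PINCH2 mutants and 110, 53 and 136 in controls, so its genotypes ranked as those of Afap1l1 did.

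The entries whose pattern was most like that of Afap1l1 were sought among the 4737 other tested entries, by the root mean square difference of centred log2 CPM over the 9 libraries. The difference was 1.33 for the metallothionein gene Mt2, 1.34 for Camk4, 1.37 for the torsin gene Tor3a, 1.49 for Itfg2, a component of a complex that restrains mTORC1, and 1.501 for the N-cadherin gene Cdh2. The median over all entries was 2.27, and Afap1l1 itself varied about its own mean by 2.25. With Pearson's correlation as the measure, 2 of the 5 stayed in the first 5, Mt2 and Itfg2. Camk4 and Cdh2, which lie on chromosome 18 as Afap1l1 does, then ranked 11 and 91, and none of the first 5 lay on that chromosome.

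Mt2, which overlaps Gm45774, had 5, 4 and 9 counts in PINCH1 mutants, 23, 13 and 31 in PINCH2 mutants and 34, 9 and 47 in controls. It was low in every PINCH1 mutant library and in the control numbered 2. Tor3a had 2, 1 and 0 counts in PINCH1 mutants, 15, 7 and 11 in PINCH2 mutants and 7, 8 and 22 in controls. Cdh2 had 0, 1 and 0 counts in PINCH1 mutants, 15, 13 and 7 in PINCH2 mutants and 1, 3 and 19 in controls. The control values of Cdh2 reached down to those of the PINCH1 mutants. Itfg2, which overlaps Nrip2, had 4, 4 and 9 counts in PINCH1 mutants, 34, 17 and 20 in PINCH2 mutants and 15, 6 and 16 in controls. These entries were picked by this likeness, so their values are a description.

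**Figure D5:**
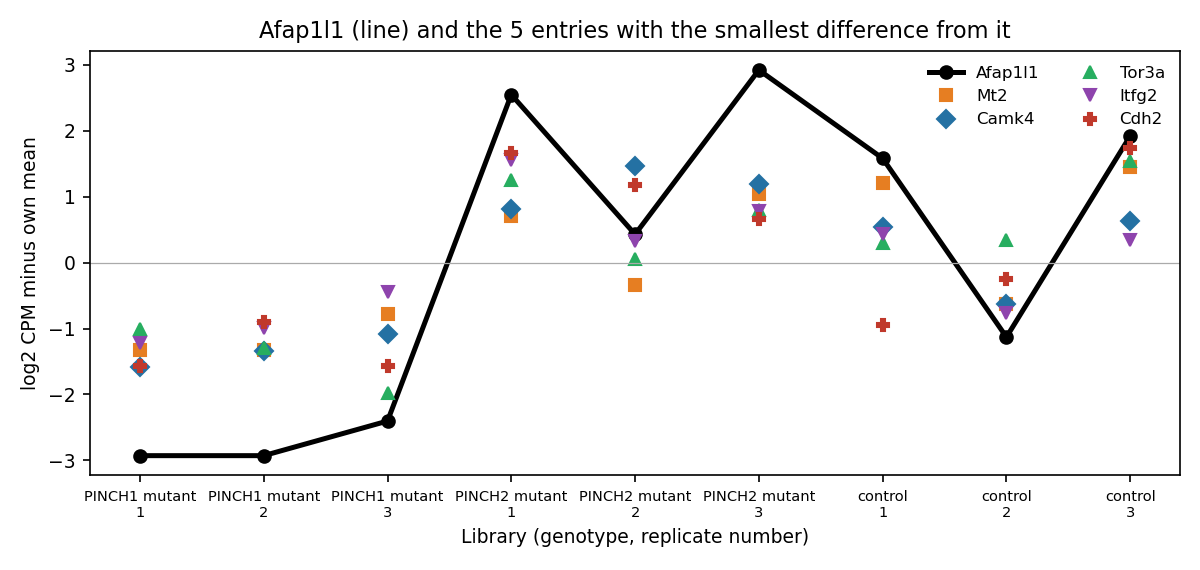
Log2 CPM of Afap1l1 (black line) and of the 5 entries nearest to it (markers), each minus its own mean over the 9 libraries, by genotype and replicate number. All 6 entries lie below their means in the PINCH1 mutants, and Afap1l1 dips at number 2 in the PINCH2 mutants and the controls.

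Markers of the cell types of the nerve were set beside Afap1l1. The 15 endothelial markers summed to 37.4 to 50.9 CPM in PINCH1 mutants, 51.3 to 68.6 CPM in PINCH2 mutants and 43.4 to 56.9 CPM in controls, a narrow range in which PINCH1 mutants overlapped the controls and lay just below the PINCH2 mutants. Of these markers, 3 had no count in any PINCH1 mutant library, 0 in the PINCH2 mutants and 3 in the controls, and Pecam1 and Cdh5 had 0 to 11 counts. Of all 25965 entries, only 13451, 13339 and 13528 had a count in PINCH1 mutants, PINCH2 mutants and controls. The 10 markers of myelinating Schwann cells summed to 11526 to 12896 CPM in PINCH1 mutants, 11278 to 13358 CPM in PINCH2 mutants and 14773 to 17119 CPM in controls, lower in both mutants without overlap. The 7 pericyte markers summed to 42.0 to 79.3 CPM in PINCH1 mutants, 60.3 to 83.4 CPM in PINCH2 mutants and 48.4 to 71.6 CPM in controls. The 6 fibroblast markers summed to 848 to 912 CPM in PINCH1 mutants, 562 to 919 CPM in PINCH2 mutants and 673 to 1345 CPM in controls. The part of these cell types in the level of Afap1l1 was not tested.

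The other lists overlapped between genotypes, except that of keratinocytes. Skeletal muscle markers summed to at most 5.84 CPM in PINCH1 mutants, 7.41 CPM in PINCH2 mutants and 8.06 CPM in controls. Adipocyte markers summed to at most 12.5 CPM in PINCH1 mutants, 7.04 CPM in PINCH2 mutants and 4.48 CPM in controls. Perineurial markers summed to 30.0 to 46.5 CPM in PINCH1 mutants, 26.5 to 51.3 CPM in PINCH2 mutants and 34.1 to 59.4 CPM in controls. Macrophage markers, most of whose counts were those of Csf1r, summed to 526 to 634 CPM in PINCH1 mutants, 488 to 664 CPM in PINCH2 mutants and 546 to 664 CPM in controls. Nonmyelinating Schwann cell markers summed to 24.6 to 50.9 CPM in PINCH1 mutants, 40.2 to 53.5 CPM in PINCH2 mutants and 36.2 to 139 CPM in controls, and those shared by the Schwann lineage to 89.7 to 163 CPM in PINCH1 mutants, 140 to 216 CPM in PINCH2 mutants and 145 to 185 CPM in controls. Nearly all counts of the neuronal markers were those of Nefm, which overlaps Nefl on the other strand. These markers summed to 57.9 to 129 CPM in PINCH1 mutants, 117 to 186 CPM in PINCH2 mutants and 91.4 to 168 CPM in controls. All counts of the keratinocyte markers were those of Krt10, which overlaps Gm11940 on the other strand. They summed to 62.9 to 76.0 CPM in PINCH1 mutants, 30.2 to 61.9 CPM in PINCH2 mutants and 10.3 to 28.7 CPM in controls. These ranges did not overlap between genotypes, and the share of all tested entries that separate in this direction was not counted.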

How the data were processed

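The submitters' processing notes name HISAT2 2.0.5, Trim Galore 0.4.2, cutadapt 1.9.1 and the build GRCm38. The sources used here do not give the counting tool, its annotation or its use of strand. As deposited, the table held whole-number read counts for 25965 named entries, unscaled, and 0 columns of per-sample values were left out. Genes were located in GENCODE M21 of the same build, where 96.4% of the entries matched by identifier, and opposite-strand exon overlaps were found with bedtools 2.31.1.

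Entries were tested with edgeR 4.0.16 in R 4.3.3 (quasi-likelihood F-test, TMM scaling, filterByExpr, 1 model over the 9 libraries, with a term for genotype alone). Of the entries, 4738 passed the filter, Benjamini-Hochberg adjustment ran over all of these, and the threshold was 0.05. SE is the size of the log2 fold change over the square root of F. The procedure was tested on simulated counts. Replicates are pooled nerves, so a p-value measures how pools differ, not single animals. The filter kept Afap1l1 through the genotypes in which it is high. Log2 CPM used a prior count of 2.

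Afap1l1 and the gene lists were chosen with earlier results of these data known. By rule, the text names tested neighbours, up to 4 members per list (those past the threshold, then by CPM) and the 5 entries most like Afap1l1. Sh3tc2, Ablim3, Grpel2, Gpr17, the mitochondrial entries and 2310008H04Rik were named after their values were seen. Alternatives were RLE and upper-quartile scaling, scaling to library totals, DESeq2 1.42.0, limma-voom (limma 3.58.1), other filters, 6 libraries alone, a replicate block, a window of 5 Mb and each library left out.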

Additional observations from a re-analysis of the deposited data

How the results depend on the processing

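The number of entries called, all entries together, was 3 in PINCH1 mutants over controls, 1 in PINCH2 mutants over controls and 4 between the mutants. In PINCH1 mutants over controls it was 6 with DESeq2, 1 with limma-voom, 15 with no filter, 16 with at least 1 CPM in at least 3 libraries, 1 with the 6 libraries alone, 5 with the replicate block and 7 without the libraries numbered 2. In PINCH2 mutants over controls it was 0 with limma-voom, the 6 libraries alone and the replicate block. Between the mutants it was 10 with DESeq2, 20 with no filter, 27 with the filter of 1 CPM, 8 with the 6 libraries alone, 6 with the replicate block and 12 without the libraries numbered 2. With 1 library left out at a time, these numbers ran from 1 to 9, from 0 to 1 and from 3 to 9. In PINCH1 mutants over controls the number was 1 without any single PINCH1 mutant library or without control replicate 1, and 9 without control replicate 2. In PINCH2 mutants over controls it was 0 without PINCH2 mutant replicate 1 or 3 or control replicate 1 or 3. Between the mutants it was 8 without PINCH1 mutant replicate 2, 9 without PINCH2 mutant replicate 2 and 8 without control replicate 2. Called neighbours of Afap1l1 within 1 Mb stayed at 0 under every alternative run, and within 5 Mb there were 0 of 9 tested.

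With 1 library left out at a time, the mean of Afap1l1 ran from 0 to 0.417 CPM in PINCH1 mutants, 50.1 to 95.1 CPM in PINCH2 mutants and 23.0 to 47.1 CPM in controls. Leaving out the libraries numbered 2 was added after seeing the data. Same-numbered libraries deviated from their group means with correlations across entries of -0.11 to 0.25. Not every library correlated best with its own number. Those numbered 2 did, at 0.25 between control and PINCH2 mutant, 0.105 between control and PINCH1 mutant and 0.0605 between the mutants. What the libraries numbered 2 share was not tested, and the numbers are not taken as pairs.

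Of 358 log2 fold changes of the named entries recomputed under alternatives, 8 changed sign, all of entries that had not passed, and the cause was not tested. In PINCH1 mutants over controls these were Afap1l2 without PINCH1 mutant replicate 3 (-0.31), Arpc1b without PINCH1 mutant replicate 2 (-0.072) and without number 2 (-0.037), Itgb1 without control replicate 1 (-0.12) and Parva without control replicate 3 (0.12). In PINCH2 mutants over controls, Hmgxb3 was at -0.33 with limma-voom, -0.032 without control replicate 1 and -0.54 without PINCH2 mutant replicate 3. With 1 library left out at a time, Hmgxb3 ran from -0.54 to 0.56, Afap1l2 from -0.31 to 0.55, Arpc1b from -0.072 to 0.22, Itgb1 from -0.12 to 0.23 and Parva from -0.31 to 0.12. Depth left 26 of the 30 neighbours of Afap1l1 untested.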
